A study of Drosophila melanogaster with 2 samples.

Results

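The mitochondrial respiratory chain and the ATP synthase are built from proteins of both genomes of the cell. Complexes I and II take electrons from NADH and succinate, complex III and cytochrome c pass them on, and complex IV hands them to oxygen. The ATP synthase uses the proton gradient that complexes I, III and IV build up. A few hydrophobic subunits are encoded in mitochondrial DNA, and all others are encoded in the nucleus, translated in the cytosol and imported. In *Drosophila* many of these nuclear genes also have a second copy, named with the suffix L, that is typically expressed in the testis, where sperm mitochondria are assembled. The nuclear-encoded subunits were taken from the deposited table of 17559 genes by their current gene symbols (names starting with ND-, COX4 to COX8, UQCR, Sdh or ATPsyn, together with *RFeSP*, *Cyt-c1*, *ox*, *cype*, *levy*, *Cyt-c-p*, *Cyt-c-d*, *blw* and *sun*). This gave 96 genes, of which 71 were main copies and 25 were L-suffixed copies or *Cyt-c-d*, the cytochrome c of the male germ line. The table listed 85 of the 96 under an older name.

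RNA of whole bodies was compared between a control library (w1118, 1 pool of 10 flies) and a library of heterozygous *taf1* mutants (w1118; taf1[1]/+, 1 pool of 10 flies). The mutants came from a cross of control flies with a stock that carries the allele taf1[1] with the markers red[1] and e[1] on 1 chromosome, kept over the balancer TM3 marked with Sb[1]. Sex and age of the flies were not named in the labels. There were no replicates, so every value compares these 2 libraries and not the genotypes, and intervals cover counting error only. The control library held 16753242 reads and the mutant library 32364756. *Taf1*, which encodes the largest subunit of the general transcription factor TFIID, had 1352 reads (80.7 CPM) in control flies and 1564 reads (58.0 CPM) in *taf1* mutants, 71.9% of the control level. The log2 ratio was -0.48 (95% interval -0.58 to -0.37). CPM are read counts divided by the size of the library on the TMM scale (trimmed mean of M-values, which sets the bulk of genes to no change). Calls of higher or lower needed a ratio of 1.5-fold or more (0.58 on the log2 scale) and an interval without equality.

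Main-copy subunits of complexes I to IV and of the ATP synthase were among the genes called higher in the mutant library. Of 71 main copies, 69 had enough reads to be measured (at least 20 in both libraries together). Of these, 26 were called higher, 0 lower and 43 neither. Over all 11606 measured genes, 12.8% were called higher and 6.16% lower, and the median log2 ratio was 0.01. The median of the main copies was 0.41, a ratio of 1.33-fold, with the middle 50% between 0.24 and 0.72. The log2 ratio was above 0 for 63 of the 69 genes, against 50.7% of all measured genes. Main copies have more reads than most genes, and among the 9099 genes in their range of reads 11.1% were called higher. This range is wide, and levels within it were not matched. The median control level was 40.7 CPM over these genes and 255 CPM over the main copies. In whole-body RNA, more cells of a type and more RNA per cell cannot be told apart.

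**Figure D1:**
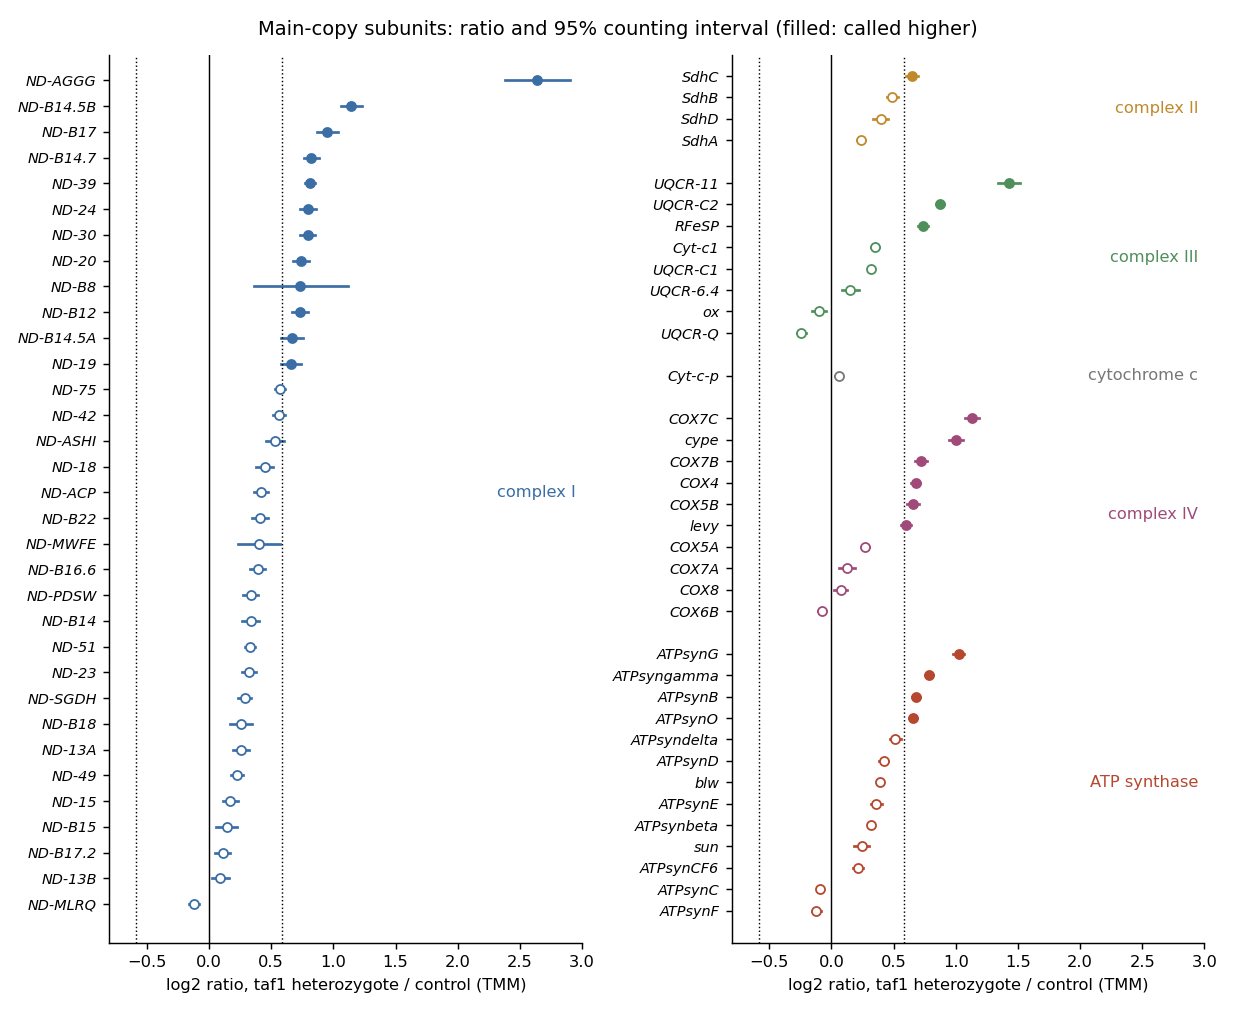
Log2 ratio of the mutant over the control library for the 69 measured main copies, by complex, on the TMM scale. Lines are exact 95% intervals for counting error, filled points are genes called higher, the solid line is equality and dotted lines are the 1.5-fold limits. Points above the upper limit occur in each complex with more than 1 gene, no point lies below the lower limit, and *ND-AGGG* at 2.64 stands far from the rest.

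Complex I, the NADH dehydrogenase and the largest of the complexes, had 12 higher genes of 33 measured (median log2 ratio 0.42). All 7 nuclear-encoded subunits of its catalytic core, which carry the flavin and the iron-sulfur clusters, had ratios above 0 (median 0.57). Of these, 3 were called higher. *ND-24*, a core subunit of the NADH-binding module, was at 153 CPM (2566 reads) in the control and 266 CPM (7166 reads) in the mutant library, a log2 ratio of 0.80 (0.73 to 0.86). *ND-30*, a core subunit of the arm that leads to ubiquinone, was at 191 and 331 CPM (0.79, 0.73 to 0.85). *ND-20*, which holds the last iron-sulfur cluster before ubiquinone, was at 172 and 287 CPM (0.74, 0.68 to 0.80). The other 4 core genes did not pass the 1.5-fold limit. *ND-75*, the largest core subunit, lay just below it with 479 and 711 CPM (0.57, 0.53 to 0.61). *ND-51*, the subunit that binds NADH, was at 455 and 573 CPM (0.33), the iron-sulfur subunit *ND-23* at 225 and 281 CPM (0.32), and *ND-49*, which lines the ubiquinone pocket with *ND-20*, at 338 and 394 CPM (0.22). Subunits that assemble next to each other in 1 module therefore differed in ratio by more than their counting intervals, as *ND-24* and *ND-51* did.

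The accessory subunits of complex I surround the core and have no redox groups. Of 26 measured, 9 were called higher (median 0.41). The highest was *ND-AGGG*, a small membrane-arm subunit, with 134 reads (8.00 CPM) in control flies and 1343 reads (49.8 CPM) in *taf1* mutants, a log2 ratio of 2.64 (2.38 to 2.91). *ND-B14.5B*, another membrane-arm subunit, followed with 90.5 and 200.1 CPM (1.14, 1.06 to 1.23). *ND-B17* was at 88.7 and 171 CPM (0.95, 0.87 to 1.04). The other higher accessory genes were *ND-B14.7*, *ND-39*, *ND-B8*, *ND-B12*, *ND-B14.5A* and *ND-19*, between 0.66 and 0.82. *ND-B8* had the fewest reads of any measured main copy, 82 and 220, and its interval was the widest (0.37 to 1.12). At the other end stood *ND-B17.2* at 210 and 227 CPM (0.11), *ND-13B* at 153 and 163 CPM (0.09) and *ND-MLRQ* at 514 and 473 CPM (-0.12, -0.16 to -0.08). *ND-MLRQ* was the single complex I gene with a ratio below 0, and its human counterpart has been assigned to complex IV. The acyl carrier protein gene *ND-ACP*, which also serves mitochondrial fatty acid synthesis, was at 238 and 318 CPM (0.42).

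Complex II, succinate dehydrogenase, is shared with the citric acid cycle and has no mitochondrially encoded subunit. All 4 main copies had ratios above 0 and 1 was called higher. The membrane anchor *SdhC* was at 256 and 401 CPM (0.65, 0.60 to 0.70), a call that was lost with total reads, with the qPCR reference genes and against genes of like length. The other 3 were within the limit, namely the iron-sulfur subunit *SdhB* at 334 and 470 CPM (0.49), the anchor *SdhD* at 209 and 275 CPM (0.40) and the flavoprotein *SdhA* at 697 and 822 CPM (0.24).

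Complex III, the cytochrome bc1 complex, had 3 higher genes of 8 measured (median 0.33). The SD of the log2 ratio over its genes was 0.55, against 0.47 for complex I. *UQCR-11*, the small acidic hinge subunit that contacts cytochrome c1, was at 78.4 CPM (1314 reads) in control flies and 211 CPM (5684 reads) in *taf1* mutants, a log2 ratio of 1.43 (1.34 to 1.51). Of the core proteins, *UQCR-C2* was higher with 624 and 1145 CPM (0.88, 0.84 to 0.91), and its partner *UQCR-C1* was at 1194 and 1486 CPM (0.32, 0.29 to 0.34). The Rieske iron-sulfur protein *RFeSP* was higher with 489 and 815 CPM (0.74), while the heme subunit *Cyt-c1* was at 621 and 792 CPM (0.35). *UQCR-6.4* was at 149 and 166 CPM (0.15), and the small subunits *ox* (239 and 223 CPM, -0.10) and *UQCR-Q* (620 and 524 CPM, -0.24) were below 0. *UQCR-Q* had the lowest ratio of all main copies. *Cyt-c-p*, the somatic cytochrome c that carries electrons between complexes III and IV, was at 938 and 978 CPM, a log2 ratio of 0.06 (0.03 to 0.09) that was below 0 with total reads (-0.20).

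Complex IV, cytochrome c oxidase, had the highest median (0.63) and 6 higher genes of 10. Its catalytic subunits are encoded in mitochondrial DNA, so the nuclear genes encode the subunits around them. *COX7C* was at 203 CPM (3396 reads) in the control and 444 CPM (11981 reads) in the mutant library, a log2 ratio of 1.13 (1.08 to 1.19). *cype*, the fly COX6C, was at 198 and 398 CPM, a ratio of 2.01-fold (0.95 to 1.06 on the log2 scale), and *COX7B* at 289 and 476 CPM (0.72, 0.67 to 0.77). *COX4*, *COX5B* and *levy*, the fly COX6A, were also higher, at 0.68, 0.65 and 0.60. The 4 genes that were not called were *COX5A* at 762 and 918 CPM (0.27), *COX7A* at 191 and 209 CPM (0.13), *COX8* at 325 and 342 CPM (0.07) and *COX6B* at 643 and 610 CPM (-0.08). *COX4* and *COX5A*, whose products enter the complex at an early step, thus stood on different sides of the limit.

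The ATP synthase had 4 higher genes of 13 (median 0.39) and the most abundant transcripts. *ATPsynG*, a membrane subunit at the dimer interface, was at 344 CPM (5758 reads) and 699 CPM (18846 reads), a log2 ratio of 1.02 (0.98 to 1.07). The central stalk gene *ATPsyngamma* was at 654 and 1125 CPM (0.78, 0.75 to 0.81), and the peripheral stalk genes *ATPsynB* and *ATPsynO* were at 0.68 and 0.66. The catalytic head is made of alpha and beta subunits in equal number. *blw*, the alpha subunit, was at 2651 and 3476 CPM (0.39, 0.37 to 0.41), and *ATPsynbeta* at 3066 and 3817 CPM (0.32, 0.30 to 0.33), both within the limit. *sun*, the epsilon subunit, was at 205 and 242 CPM (0.24) and the peripheral stalk gene *ATPsynCF6* at 441 and 511 CPM (0.22). *ATPsynC*, the subunit of the rotating membrane ring and the most abundant member in reads in the control library, was at 3726 and 3496 CPM (-0.09, -0.11 to -0.08), and the membrane gene *ATPsynF* at 699.7 and 644 CPM (-0.12). Of all reads of the main copies, *ATPsynC* took 12.1% in the control and 8.74% in the mutant library, while *blw* took 8.58% and 8.69%.

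Per kb of transcript, the main copies spanned 10.6 to 2589 CPM per kb in control flies and 17.7 to 2430 CPM per kb in *taf1* mutants. Their order was nearly the same in both (Spearman's rho across 69 genes 0.94, a description, since genes are not replicates). The least abundant per kb were *ND-B8*, *ND-AGGG* and *ND-MWFE* in the control library, and *ATPsynC*, *ATPsynbeta* and *Cyt-c-p* were the most abundant. All 6 genes with ratios below 0 were among the 23 main copies with the highest mean level per kb (median log2 ratio 0.32). The 23 with the lowest level had a median of 0.56, and 10 of them were called higher. Across the 69 genes the log2 ratio fell with the control level (rho -0.31), which the ratio itself contains. Complex I took 20.9% of main-copy reads in the control and 22.2% in the mutant library, complex IV 12.6% and 13.5%, the ATP synthase 45.7% and 43.5%, and cytochrome c 3.04% and 2.44%.

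**Figure D2:**
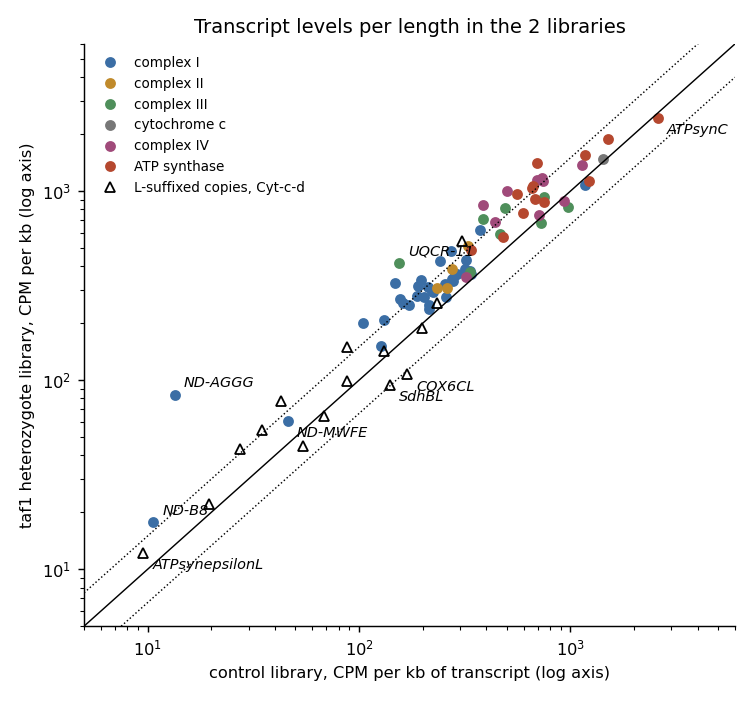
Level of the 84 measured genes in the control library against the mutant library, in CPM per kb of transcript on log axes. The solid line is equality and dotted lines are 1.5-fold. Main copies by complex lie mostly above equality, *ND-AGGG* (13.4 and 83.7) lies farthest from it, and *ATPsynC* (2589 and 2430) is at the top end.

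The 2 main copies with the highest ratios lie near each other. In the BDGP6 assembly *ND-AGGG* is on chromosome 3L from 24976254 to 24977118 and *UQCR-11* on 3L from 25120709 to 25126171, next to the centromere. The measured genes between them, *Set1* (log2 ratio -0.16) and *MED21* (-0.21), were not called, and the nearest measured gene on the other side of *ND-AGGG*, *CG40472*, had 2 reads in the control and 248 in the mutant library. Of the 44 measured genes of 3L beyond position 23000000, 16 were called higher (36.4%) and 3 lower, against 11.3% higher of the 2240 measured genes of 3L. This stretch was chosen after its values were seen. The mutant flies carry 1 copy of chromosome 3 from the *taf1* stock, so the mutation and the origin of the chromosome cannot be told apart. Other chromosomes of the stock entered by the same cross, so this limit is not confined to chromosome 3. The direction of the cross, which bears on the origin of X and of mitochondrial DNA, was not given. Without *ND-AGGG* and *UQCR-11*, 24 of 67 main copies were higher (median 0.40), and the SD of the log2 ratio over genes fell from 0.43 to 0.32. All 69 main copies were spread over the chromosome arms, with medians of 0.65 on 2L (15 genes), 0.39 on 2R (14), 0.55 on 3L (14, or 0.39 over 12 without *ND-AGGG* and *UQCR-11*), 0.36 on 3R (13), 0.51 on X (11) and 0.27 on 4 (2).

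Short transcripts had higher ratios in these libraries, and most subunits have short transcripts. Over 11561 genes the log2 ratio fell with transcript length (rho -0.31), but over the 69 main copies it did not (rho 0.12). The 23 shortest main copies, from 331 to 604.5 nt, had a median of 0.33 with 9 called higher, where 845 genes of the same lengths had a median of 0.16 with 26.2% higher. The 23 longest, from 851 to 2663 nt, had a median of 0.51 with 9 called higher, where 6276 genes of those lengths had a median of 0.07 with 13.6% higher. This last range is wide, and lengths within it were not matched. The median of all genes in it went from 0.15 near 860 nt to -0.04 near 2566 nt. Set against the 200 genes nearest in length, the median of the main copies was 0.28 and 15 were called higher, 14 of them among the 26, where 10.5% of 11561 genes were called higher and 6.45% lower in the same way. Lengths are those of the BDGP6 annotation, and the part that length plays in the ratios was not tested.

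**Figure D3:**
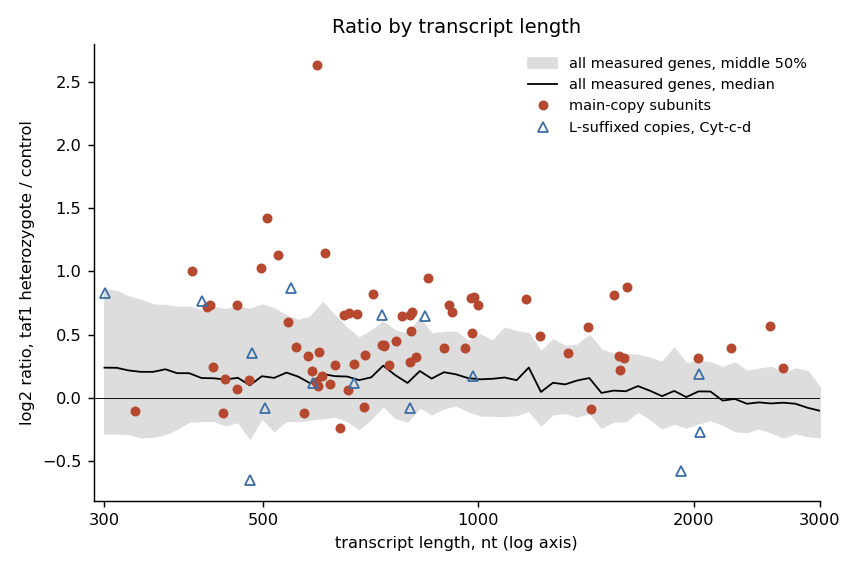
Log2 ratio of the mutant over the control library against transcript length in nt (log axis) for the 69 main copies (filled points) and the 15 measured L-suffixed copies and *Cyt-c-d* (triangles). The line and band are the median and the middle 50% of the 200 measured genes nearest in length. The line falls from the shortest to the longest genes, and main copies of 851 nt or more (median 0.51) lie mostly above the band's centre.

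The scaling of the libraries set how many subunits passed the limit. Genes of the mitochondrial genome made up 2.91% of reads in control flies and 15.2% in *taf1* mutants, and main copies took 3.09% and 3.33% of all reads, or 3.18% and 3.93% of the reads outside mitochondrial genes. With total reads in place of TMM, which shifts every log2 ratio by -0.26, the count of higher main copies was 8, 49 of the 69 were above 0 and the median was 0.15. Over all measured genes this scaling called 7% higher and 19.1% lower. With the study's qPCR reference genes (*RpL32*, *eEF1alpha2* and *Act5C*) held equal on average, a shift of -0.33, the count was 7, with 44 above 0 and a median of 0.08, while 6.21% of all measured genes were called higher and 23.7% lower. The median of the main copies lay 0.40 above that of all measured genes under each of these scalings. A scaling shifts all genes by the same amount, so this gap is fixed and does not test the scalings. Complex I had 3 higher genes with total reads, 3 with the qPCR reference genes and 8 against genes of like length. Complex III had 2, 1 and 3. *ATPsynG*, *COX7C*, *ND-AGGG*, *ND-B14.5B*, *ND-B17*, *UQCR-11* and *cype* were called higher under each scaling tried and against genes of like length. No main copy was called lower under any of them, but *UQCR-Q* lay just inside the limit with the qPCR reference genes (-0.57).

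**Figure D4:**
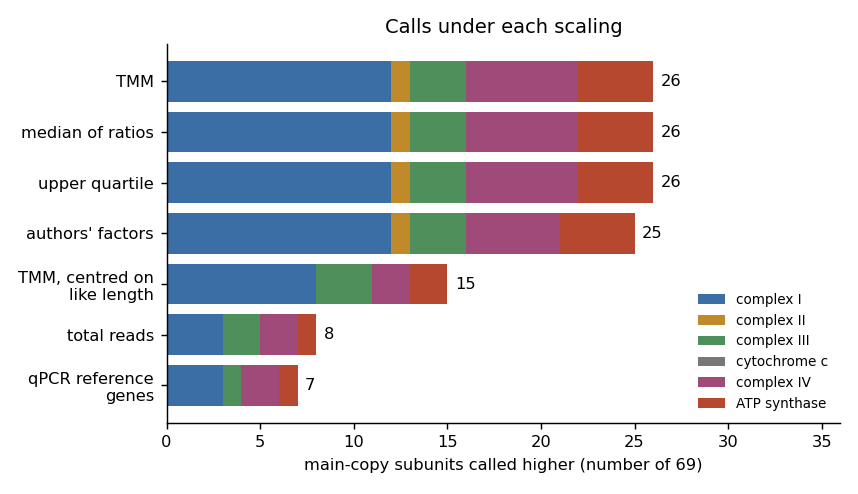
Number of the 69 main copies called higher at 1.5-fold in the mutant library under 6 scalings and with TMM ratios centred on genes of like transcript length, coloured by complex. The count is 26 with TMM, 15 after centring on length, 8 with total reads, and 7 when the qPCR reference genes are held equal.

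Of the 25 L-suffixed copies, *Cyt-c-d* included, 15 were measured and 10 were listed at 0 in both libraries. Of the 15, 5 were higher and 1 lower, where 12.8% of all measured genes were higher and 6.16% lower. Their median transcript length was 669.5 nt, and 21.0% of the 944 measured genes of 610 to 819 nt were called higher. With total reads 1 copy was higher and 2 lower (all genes 7% and 19.1%). With the qPCR reference genes 0 were higher and 3 lower (all genes 6.21% and 23.7%). The median log2 ratio of the copies was 0.17, which turned to -0.092 with total reads and to -0.15 with the qPCR reference genes. The 5 higher genes with TMM were *ATPsynGL* at 23.4 and 42.7 CPM (0.87), *COX7AL2* at 92.0 and 163 CPM (0.83), *COX7CL* at 35.9 and 61.2 CPM (0.77), *ND-20L* at 20.1 and 31.6 CPM (0.66) and *ND-24L* at 29.2 and 45.9 CPM (0.65). *COX6CL*, the copy of *cype*, was lower, with 1355 reads (80.9 CPM) in the control and 1389 reads (51.5 CPM) in the mutant library, a log2 ratio of -0.65 (-0.76 to -0.54). *SdhBL*, the copy of *SdhB*, lay just inside the limit with 270 and 181 CPM (-0.58, -0.63 to -0.52). The other copies lay between -0.27 and 0.36. Near-identical copies can share reads, and sequence identity between copies was not computed here.

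A copy can be set against its own main gene, and this difference does not depend on how the libraries are scaled. In 14 pairs both genes had reads. The copy's log2 ratio was below that of its main gene in 12 pairs, with an interval that excluded 0 in 7, and above it in 2, with such an interval in 1 (median difference -0.15). The gap was widest for *COX6CL* and *cype* (-1.65, -1.78 to -1.53), then for *SdhBL* and *SdhB* (-1.07) and for *COX6AL2* and *levy* (-0.87). *COX4L* (-0.56), *SdhCL* (-0.48), *COX7CL* (-0.36) and *Cyt-c-d* (-0.14) made up the rest of the 7. Of these 7 pairs, 4 are from complex IV, as are 6 of all 14 pairs. *COX6AL2* shares 67.0% of its exon bases with *Ir75d* on the same strand, so its reads are uncertain. *Cyt-c-d* shares 36.4% with *CG31808* on the opposite strand. The main genes *COX7C* (15.7%, *oys*) and *SdhB* (10.6%, *CG15237*) also share exon bases on the opposite strand. Per kb, *COX6CL* made up 25.3% of its pair in the control and 9.69% in the mutant library, and *SdhBL* 33.9% and 19.7%. In the other direction, *COX7AL2* went from 48.7% to 60.7% of its pair with *COX7A* (difference 0.70, 0.59 to 0.80), and by reads alone, without regard to length, from 32.5% to 43.9%. *ATPsynbetaL* had the smallest share, 1.27% and 1.16%, and *ATPsynepsilonL* followed with 1.94% and 2.10% of its pair with *sun*. *COX7AL* (28.9% and 28.8%), *ATPsynGL*, *ND-24L*, *ND-20L*, *ATPsynbetaL* and *ATPsynepsilonL* (0.12, -0.28 to 0.51) had differences whose intervals included 0. *UQCR-14L* (34.3 and 32.4 CPM, -0.08) had no pair, since *UQCR-14* was at 0.

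**Figure D5:**
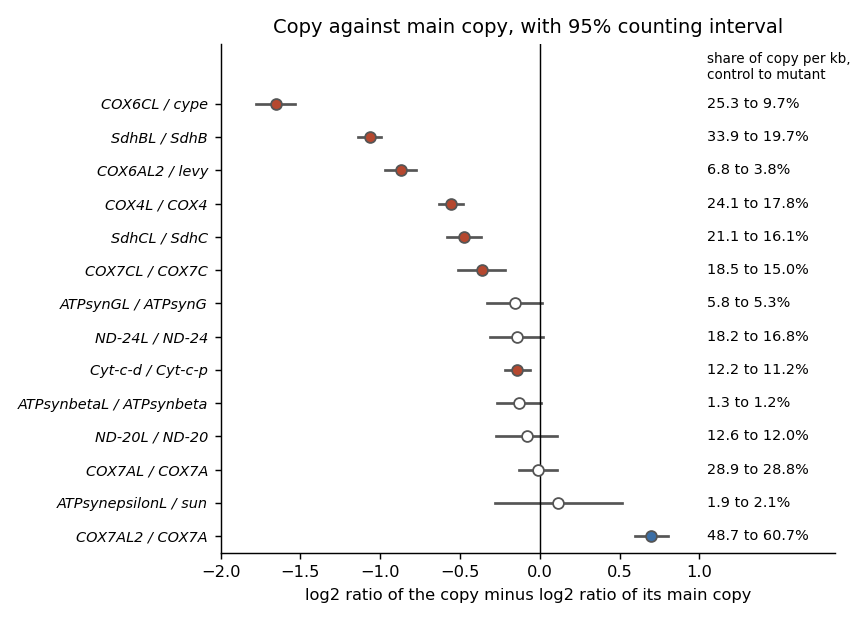
Difference between the log2 ratio of each copy and that of its main gene for the 14 pairs with reads in both genes, with 95% counting intervals, and the copy's share of the pair per kb in each library. Filled points have intervals that exclude 0, 7 below and 1 above, from *COX6CL* at -1.65 to *COX7AL2* at 0.70.

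Of the 96 genes, 12 were listed at 0 in both libraries. They were the main copies *ND-MNLL*, a membrane-arm subunit of complex I, and *UQCR-14*, the fly UQCRB of complex III, and the copies *ATPsynCF6L*, *COX5BL*, *COX6AL*, *ND-49L*, *ND-51L1*, *ND-51L2*, *ND-B14.5AL*, *SdhAL*, *UQCR-11L* and *UQCR-6.4L*. A value of 0 is not a measured absence here. *ND-MNLL* (all exon bases shared with *CG45089* on the same strand), *UQCR-14* (with *CG32576* on the opposite strand) and *COX5BL* (with *Trmt6* on the opposite strand) are the 3 members that lie wholly within the exons of another gene. Of 74 protein-coding genes of the table that lie wholly within exons of the opposite strand, 69 were listed at 0 (93.2%), and of 296 on the same strand 286 (96.6%), against 1538 of the 9291 that share no exon base. The other 9 members at 0 share no exon base. In all, 40 members share exon bases with another gene, and the sources used here do not say whether counting used the strand. The 34 main copies that share any exon base had 9 higher genes and a median of 0.36, and the 35 that share none had 17 higher genes and a median of 0.57. All 6 main copies with ratios below 0 were among the 34, and all 35 others were above 0. These 6 share from 0.65% (*ATPsynF*) to 12.4% (*ox*) of their exon bases, and the part of this sharing in their ratios was not tested. Over all measured genes, 11.3% of the 3816 that share exon bases and 13.3% of the 7745 that share none were called higher.

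Other genes of the pathway were described by lists, beside 12.8% called higher and 6.16% lower over all measured genes. A single higher gene in a list of 7, 8 or 14 is no more than about this share. All 12 measured mitochondrially encoded subunits were higher, and their median log2 ratio of 2.97 was far above that of the nuclear main copies (0.41). The lowest was *mt:ND2* at 34.4 and 78.9 CPM (1.20) and the highest *mt:ND3* at 3.46 and 457 CPM (7.03), while *mt:ATPase8* had 0 and 19 reads. Of 14 measured assembly factors, 1 was higher, *Scox*, a copper chaperone of complex IV (25.2 and 39.4 CPM, 0.64), and the median was 0.22. Of 8 carriers and channels, 1 was higher, the phosphate carrier *Mpcp2* (605 and 1003 CPM, 0.73), with a median of 0.26, and the adenine nucleotide carrier gene *sesB* was listed at 0. Of 7 genes of coenzyme Q synthesis, 1 was higher, *Coq3* (184 and 468 reads, 0.66), with a median of 0.34. *CG13551*, annotated as the inhibitory factor of the ATP synthase, was higher with 73.8 and 114 CPM (0.63). Of 9 regulators of nuclear respiratory genes, 0 were called in either direction, and the median was -0.18. *ewg*, the fly NRF-1, was at -0.12, the PGC-1 homologue *srl* at -0.18 and *TFAM*, which packages mitochondrial DNA, at 0.11. With total reads each of these log2 values shifts by -0.26, as for the subunits.

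Marker genes of tissues also differed between the libraries. Their calls stand beside 12.8% higher and 6.16% lower over all measured genes. Summed CPM of 15 measured muscle genes was 1.19-fold the control level in the mutant library (median log2 ratio 0.33, 3 higher and 0 lower, *TpnC4* at 0), of 8 fat body genes 1.79-fold (5 higher), and of 8 gut genes 1.64-fold (5 higher). The 5 measured neuronal genes summed to 0.649-fold (3 lower, *elav* at 0). The 15 measured testis genes summed to 1.13-fold (median 0.03, 3 higher and 1 lower, *sa* at 0), beside the median of 0.17 for the L-suffixed copies and *Cyt-c-d*, and the 3 measured accessory gland genes to 0.714-fold (1 higher and 2 lower, *Acp36DE* and *Acp62F* at 0). Yolk protein genes and *osk* together had 274 and 389 reads, against 77352 and 141188 for the testis genes. With total reads the sums were 0.990-fold for muscle, 0.945-fold for testis, 1.49-fold for fat body, 1.37-fold for gut and 0.541-fold for neurons, so the direction held for fat body, gut and neurons and turned for muscle and testis. The sums take no account of transcript length, with which ratios fell over all genes (rho -0.31). Muscle genes, for one, ranged from -0.56 (*bt*) to 2.25 (*fln*), with 10 of 15 above 0. The part of these differences in the ratios of the subunits was not tested.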

How the data were processed

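RNA of 1 pool of 10 whole flies per genotype was prepared with a stranded mRNA kit and sequenced by a core facility. Per the labels the genome build was BDGP6. The sources used here do not name the aligner or the counting tool. The table deposited by the authors holds a signal, namely gene read counts after division by a factor of the library. Each column was divided by its smallest positive value, the worth of 1 read (1.31 for control, 0.794 for the mutant), and 100% of the values came out whole within a tolerance of 0.001. These recovered reads took the place of the raw counts that the design had assumed. With 1 library a genotype, 0 residual degrees of freedom remain, so no count model (edgeR, DESeq2) could be fitted.

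Reads were scaled by TMM (edgeR 4.0.16 in R 4.3.3, size ratio 1.61). The other steps used Python 3.11.15, pandas 2.3.3 and scipy 1.17.1. Log2 ratios had a prior count of 0.5. Intervals are exact 95% conditional binomial (Clopper-Pearson) intervals for counting error alone (for a difference between a copy and its main gene, a normal approximation on the log scale), and PCR reads with no molecular identifiers do not count separate molecules. At this depth the interval of a main copy extended 0.053 in the median to either side on the log2 scale, and 3 reads, the limit a count of 0 allows, correspond to 0.179 CPM in the control and 0.111 in the mutant library. Symbols were matched to RefSeq for 17434 genes, and lengths (median over transcripts) and shared exon bases came from a BDGP6 annotation for 17419 genes. The alternatives were other scalings (DESeq2 1.42.0 for the median of ratios), centring on the 200 genes nearest in length, other limits, and leaving out members that share exon bases. The calculations were tested on simulated data. Any member could be named, and most values were given for the 3 highest and 3 lowest of each complex, the catalytic subunits, every measured copy and every member at 0. Of the other lists, called genes were named (up to 2 highest and 2 lowest). *sesB*, *ewg*, *srl*, *TFAM* and the genes of the chromosome 3L stretch were named outside that rule, after their values were seen. Members and lists were chosen with earlier results of these data known. No sequences were used here.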

Additional observations from a re-analysis of the deposited data

How the results depend on the processing

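Main copies were called higher in 26 cases and their median log2 ratio was 0.41, and the copies gave 5 higher, 1 lower and a median of 0.17. Over all measured genes 12.8% were higher and 6.16% lower. With total reads the main copies gave 8 and 0.15, and the copies 1 higher, 2 lower and a median of -0.092, while 7% of all measured genes were higher and 19.1% lower. With the qPCR reference genes these were 7 and 0.084, then 0, 3 and -0.15, beside 6.21% and 23.7% of all genes. The authors' factors gave a main median of 0.37, and 2 lower copies with a median of 0.13 (all genes 11.6% higher and 7.41% lower). Centring on genes of like length gave 15 and 0.28, then 3 higher copies and 0.054 (all genes 10.5% higher and 6.45% lower). A 2-fold limit gave 6 higher main copies and 0 higher and 0 lower copies (all genes 5.76% and 1.7%), and a limit of 0.32 on the log2 scale 44 higher main copies and 2 lower copies (all genes 22.1% and 17.6%). Without members that share exon bases, 17 of 35 main copies were higher with a median of 0.57. The copies' median share per kb of a pair was 18.4% in the control and 13.5% in the mutant library, and by reads alone 18.4% and 13.2%. These counts and medians stayed within 1.5 times or 0.02 with median of ratios, upper quartile, TMM without mitochondrial genes, a prior count of 2, a minimum of 100 reads or of 1 read, and calls made without the interval. No main copy was called lower under any of these settings. The largest shift of a scaling (-0.33) is smaller in size than the limit of 0.58, so a called gene could not change direction. No paired analysis was possible because each genotype has 1 library, and for the same reason no replicate could be left out. Depth limits few of the main copies, since the widest interval, that of *ND-B8*, extended 0.378 to either side, and spread between pools of flies was not measured.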
